A study of Mus musculus with 34 samples.

Results

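Clustered Zfp genes were taken as protein-coding mouse genes named Zfp plus a number whose start lies within 500 kb of the starts of at least 2 other such genes, with gene positions from RefSeq on GRCm38.p6 (mm10). The rule gave 218 genes of 367 Zfp genes, and of 21631 protein-coding genes on chromosomes 1 to 19 and X. They formed 34 clusters on 15 chromosomes, of which 17 had 5 or more members, and spanned 17.2 Mb. Chromosome 7 held 9 clusters with 76 members. The largest single cluster, Zfp160 to Zfp13 on chromosome 17, had 23 members. Zfp574, whose second nearest neighbour starts 492 kb away, was just inside the limit, and Zfp775, at 540 kb, was just outside it. Their mean H3K4me3 within 2.5 kb of the gene ends was 1.72 kb at Zfp574 and 1.38 kb at Zfp775 in FGR libraries, and 0.782 kb at Zfp574 and 0.909 kb at Zfp775 in Ctrl libraries. The name covers some unrelated proteins, such as the RNA-binding protein of Zfp36.

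The assay was ULI-NChIP-seq, a native chromatin immunoprecipitation for small cell numbers, applied to hippocampal microglia of mice labelled FGR and of mice labelled Ctrl. Both groups carried the Tmem119-tdTomato+/- reporter, which marks microglia. The labels give an age of 3 weeks after birth for replicates 1 to 3 and none for replicate 4. Each of the 4 marks had 4 libraries per group, and nothing in the labels says whether these came from separate animals, so p-values measure the spread between these libraries, which may be technical.

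Most Zfp genes encode C2H2 zinc finger proteins, and many of these carry a KRAB domain, which recruits Trim28 and the H3K9 methyltransferase Setdb1 to the sites they bind. Their best known targets are transposable elements. The genes themselves arose by repeated duplication and lie in tandem arrays. In many cell types the arrays are coated by H3K9me3, a mark of heterochromatin, along the gene bodies and above all over the 3′ exons that encode the finger repeats, while promoters keep H3K4me3 and acetylation, the marks of active starts. Factors of the chromosome 4 arrays are known to bind endogenous retroviruses in mouse embryonic stem cells.

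All values here come from lists of called peaks, 1 per library, so read depth is unknown. The 2 groups' lists differed in kind before any gene was compared. H3K4me3 lists held 43052 to 48922 peaks in FGR and 16551 to 18344 in Ctrl, with a shortest peak of 148 to 150 bp in FGR and 275 to 280 bp in Ctrl. H3K9me3 broad lists of replicates 1 to 3 covered 9.774 to 14.93 Mb in FGR and 284.2 to 472.2 Mb in Ctrl, and reached down to a −log10 q of 1.012 in FGR and of 0 in Ctrl. Over the 218 members, FGR libraries labelled H3K4me3 correlated with Ctrl libraries labelled H3K9ac at a mean Pearson r of 0.919 and with Ctrl libraries labelled H3K4me3 at 0.774, whereas FGR libraries labelled H3K9ac correlated with the same Ctrl libraries at 0.755 and 0.615. These correlations are across genes of the same libraries and carry no test. Whether labels were exchanged between the 2 marks was not tested, and each change of either mark below goes by the labels. All 12 microglia markers had H3K27ac called, at a summed 52.2 to 61.4 kb in FGR and 93.4 to 95.5 kb in Ctrl. H3K9ac at the microglia markers summed to 37.1 to 40 kb in FGR and 56.2 to 60.5 kb in Ctrl. H3K9ac at 8 neuronal markers summed to 4.13 to 6.67 kb in FGR and 0.325 to 0.709 kb in Ctrl, with 2 markers at 0 in FGR and 5 at 0 in Ctrl, and their H3K27ac to 0 to 0.364 kb in FGR and 0 kb in Ctrl. H3K9ac also summed to 3.13 to 5.52 kb in FGR and 1.52 to 2.5 kb in Ctrl at 6 markers of the oligodendrocyte lineage, and to 2.94 to 6.14 kb in FGR and 1.68 to 2.13 kb in Ctrl at 5 of endothelial and mural cells. At astrocyte markers it was 3.54 to 5.64 kb in FGR and 5.01 to 6.32 kb in Ctrl, and at markers of border-associated macrophages 0 to 1.5 kb in FGR and 2.4 to 2.69 kb in Ctrl. The part of these differences in the results was not tested.

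H3K9me3 was first read from the lists as deposited, as the percent of each gene body under peaks. In each broad-peak library a larger share of the members than of all genes carried the mark. In Ctrl the median member was covered over 28.7%, 27.2% and 20% of its body in replicates 1 to 3, against 2.77%, 2.47% and 1.09% for all genes. In FGR 69, 63 and 81 of the 218 members had any peak, or 31.7%, 28.9% and 37.2%, against 11.2%, 9.71% and 14.0% of all genes. Of the 218 members, 30.3%, 27.1% and 32.6% in FGR and 40.4%, 43.6% and 45.4% in Ctrl were among the 5% of genes with the highest coverage. Cluster by cluster, the order in Ctrl was led by 5 arrays that exceeded 60% in each library, namely both chromosome 4 arrays, Zfp433 to Zfp938 on chromosome 10, Zfp120 to Zfp345 on chromosome 2 and Zfp808 to Zfp934 on chromosome 13. At the other end, Zfp965, which stands alone as the 1 cluster with a single member, averaged 0% in FGR and 0.567% in Ctrl. The arrays Zfp553 to Zfp646 on chromosome 7, Zfp185 to Zfp92 on chromosome X and both arrays of chromosome 15 averaged 0% to 0.21% in FGR and 0.65% to 2.09% in Ctrl. Over the 218 members, mean coverage in FGR and in Ctrl was related by a Spearman rho of 0.628, and of 0.559 without chromosome 4, given as a description since the genes share their libraries.

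**Figure D1:**
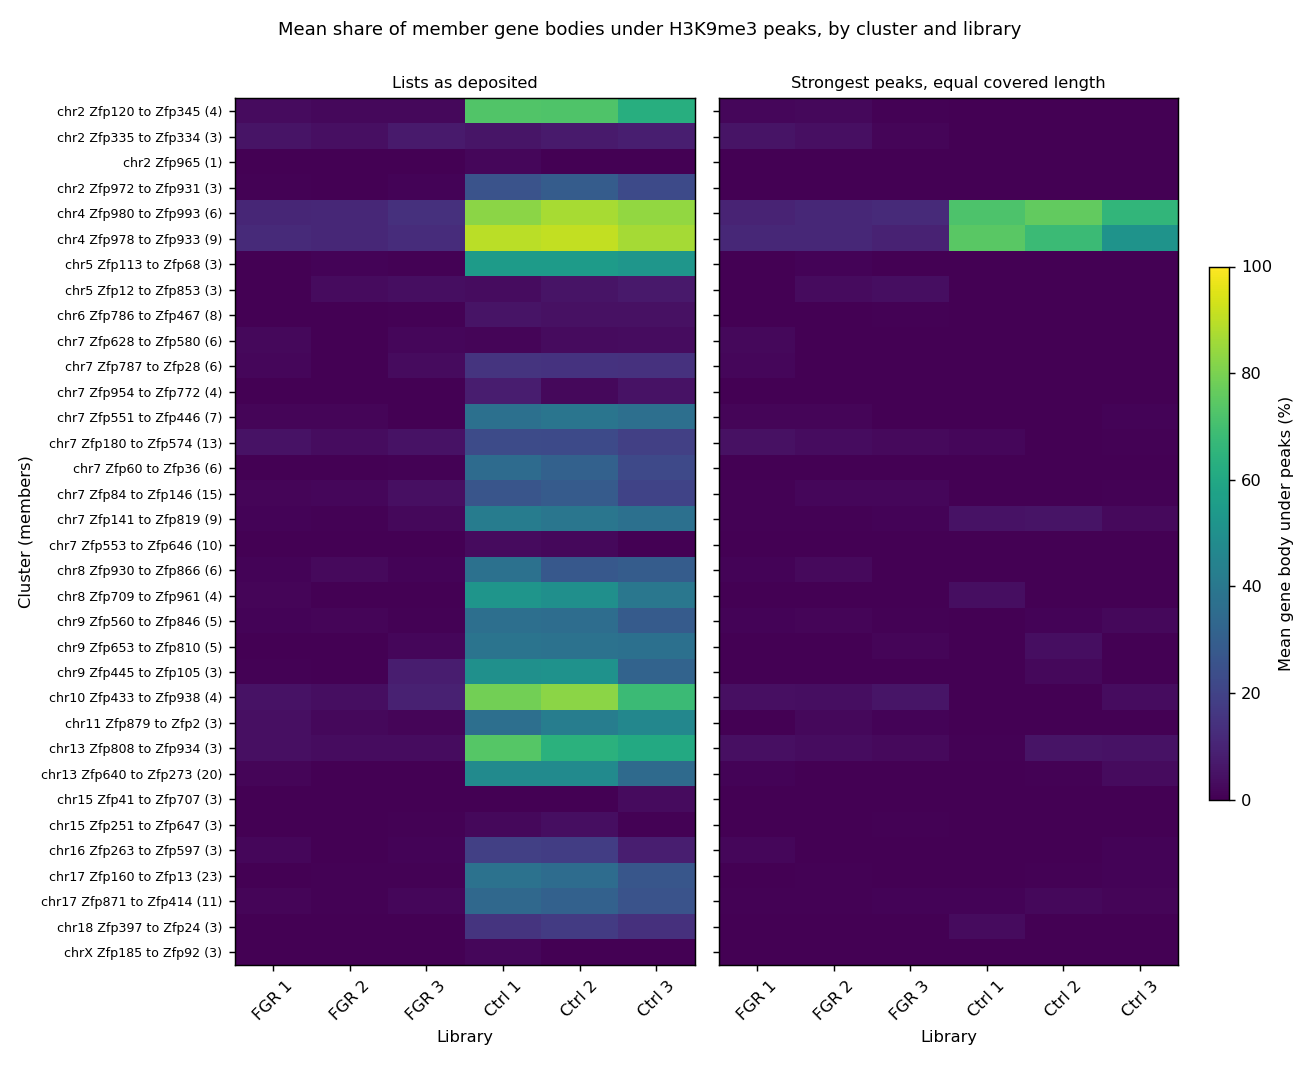
Mean percent of member gene bodies under H3K9me3 peaks in each of 34 clusters (rows, with the number of members) and each broad-peak library (columns), on a colour scale of 0 to 100%. Left, lists as deposited; right, the strongest peaks of each list up to an equal covered length of 9.77 Mb, where the 2 chromosome 4 arrays stand at 9.61% to 12% in FGR and 51.5% to 75.8% in Ctrl.

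Because the lists were cut at different thresholds, the FGR to Ctrl comparison of H3K9me3 depended on how they were brought together, and 3 readings are given. In the first, all lists were cut at a common −log10 q of 1.3, which left 13747 to 16201 peaks in FGR and 61 to 62 in Ctrl. No member had a peak in Ctrl replicates 1 to 3 at that level. Each member tested thus entered through FGR libraries alone, and none could be called lower. Of 57 members tested, 21 were higher in FGR and 0 lower by limma (adjusted p under 0.05), or 36.8% of those tested, against 40.0% of all 1894 genes tested higher and 0.211% lower. A share near that of all genes is no result about the members. The count was 35 of 42 tested without FGR replicate 1, and 13 of 57 without any 1 of the Ctrl replicates. Over all fits that left out 1 library, 345 to 1177 of all genes were higher. After quantile normalization of the same values 18 members were higher and 0 lower, where 17.7% of all genes were higher and 20.8% lower. Before that step 16 to 23 of all 21631 genes had a peak in each Ctrl broad list, and no member did. Nearly all Ctrl values were thus tied, and the step gives no separate information on Ctrl at the members.

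In the lists as deposited the sign was the opposite. Of 182 members tested, 145 were lower in FGR and 0 higher, with medians over the members tested of 0.67% in FGR and 35.8% in Ctrl, where 62.7% of all 12489 genes were lower and 0.120% higher. The third reading took from each deposited list its strongest peaks by −log10 p until they covered 9.77 Mb, the length of the shortest list. It was chosen after the values were seen. In it 62 members were tested, 5 were higher and 10 lower in FGR, against 4.89% of all 3087 genes higher and 0.680% lower. The strongest peaks of Ctrl so taken still reached down to a −log10 p of 2.07, against 3.636 in FGR, so the lists so cut still differed in their weakest peak. All 10 lower members lay on chromosome 4, and they made up 47.6% of the 21 genes lower in the genome. Of the 21 genes, 11 lay on chromosome 4, and the one that was no member there was Rex2. The 5 higher members were Zfp433, Zfp52, Zfp112, Zfp30 and Zfp930, on 4 other chromosomes. Of the 21 members higher at the common threshold, 8 were lower in the reading by equal length.

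Among the 34 clusters the chromosome 4 arrays had the highest mean H3K9me3 in the Ctrl lists as deposited, at 84.5% and 88.9%. They comprise Zfp980 to Zfp993, with 6 members, and Zfp978 to Zfp933, with 9, over 2.05 Mb. In the lists as deposited all 15 members were covered over more than 50% of their body in each Ctrl library, at medians of 90.9%, 94.2% and 88.5%, and none was in FGR, at medians of 10.2%, 11.9% and 11.9%. At equal covered length the medians were 9.48%, 11.9% and 10.1% in FGR and 82.1%, 71.8% and 65.9% in Ctrl. The arrays then held 2.1%, 2.54% and 2.22% of the covered genome in FGR and 11.5%, 11.1% and 8.77% in Ctrl, and the groups did not overlap. In the lists as deposited the order was the opposite, at 1.98%, 2.54% and 1.77% of the covered genome in FGR and 0.298%, 0.339% and 0.484% in Ctrl. For the 203 members on other chromosomes, mean coverage at equal length was 1.03%, 0.964% and 0.807% in FGR and 0.578%, 0.77% and 0.878% in Ctrl.

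Zfp600, on chromosome 4 from 146156827 to 146198756, is taken first because its promoter is printed below. At equal covered length 9.5%, 12.3% and 11.9% of its body was under peaks in FGR and 92.4%, 96.3% and 96.8% in Ctrl (limma adjusted p = 3.75e-05). Zfp988, from 147305604 to 147334067, had 8.22%, 6.39% and 3.36% in FGR and 95.2%, 94.4% and 94.7% in Ctrl (limma adjusted p = 2.18e-05), with the smallest adjusted p among the members in this reading. At both genes the libraries of each group lay close together and far from the other group. At the common threshold the same genes were called the other way. Ctrl was at 0% in replicates 1 to 3, so a lower call could not occur there. FGR kept 9.5%, 12.3% and 11.9% at Zfp600 (limma adjusted p = 0.00111) and 8.22%, 5.71% and 3.36% at Zfp988 (limma adjusted p = 0.0243).

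Zfp992, the member of its array with the highest coverage at the common threshold, had 26%, 22.6% and 33.3% in FGR, against 93.3%, 92.6% and 95.9% in Ctrl at equal covered length (limma adjusted p = 0.000784). Zfp987 had the lowest of that array, at 0% in all 3 FGR lists and 38.5%, 68.3% and 30.0% in Ctrl at equal length, and did not pass the test (limma adjusted p = 0.087). In the other array the highest was Zfp978, with 20%, 23.4% and 21.9% in FGR and 73.7%, 71.8% and 63.4% in Ctrl (limma adjusted p = 0.00205). Its gene body of 267 kb contains Zfp991 and Zfp988, and Zfp981 overlaps Zfp993, so these values are not independent. The lowest, Zfp534, had 0.968%, 2.1% and 0% in FGR and 82.1%, 83.7% and 65.9% in Ctrl (limma adjusted p = 0.00257). Some members of the array varied widely within Ctrl at equal length, above all Zfp979, with 97.3%, 65.3% and 14.9%, against 20.8%, 11.9% and 14.5% in FGR (limma adjusted p = 0.391). Zfp933, at the edge of the array, had 7.91%, 7.63% and 11.8% in FGR and 0%, 7.93% and 0.7% in Ctrl.

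Zfp981, Zfp978, Zfp982, Zfp985 and Zfp991 had the smallest p for higher at the common threshold, where no member could be called lower. Zfp981 had 17.9%, 19.7% and 19.4% in FGR and 0% in all Ctrl broad lists there (limma adjusted p = 0.000127), but 17.9%, 20.5% and 19.4% in FGR and 73.9%, 61.3% and 73.5% in Ctrl at equal length (limma adjusted p = 0.00404). Replicate 4, called as narrow peaks and left out of these tests, can be read on its own. Its FGR list placed a peak in 1503 genes, of which 40 or 2.66% were members and 14 lay on chromosome 4. Its Ctrl list, of 199 peaks, touched 33 genes, of which 12 or 36.4% were members and 11 lay on chromosome 4, where members are 1.01% of all genes. At Zfp600 it gave 5.11% in FGR and 3.88% in Ctrl. The lists differ in length, and with 1 library per group there is no test.

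**Figure D2:**
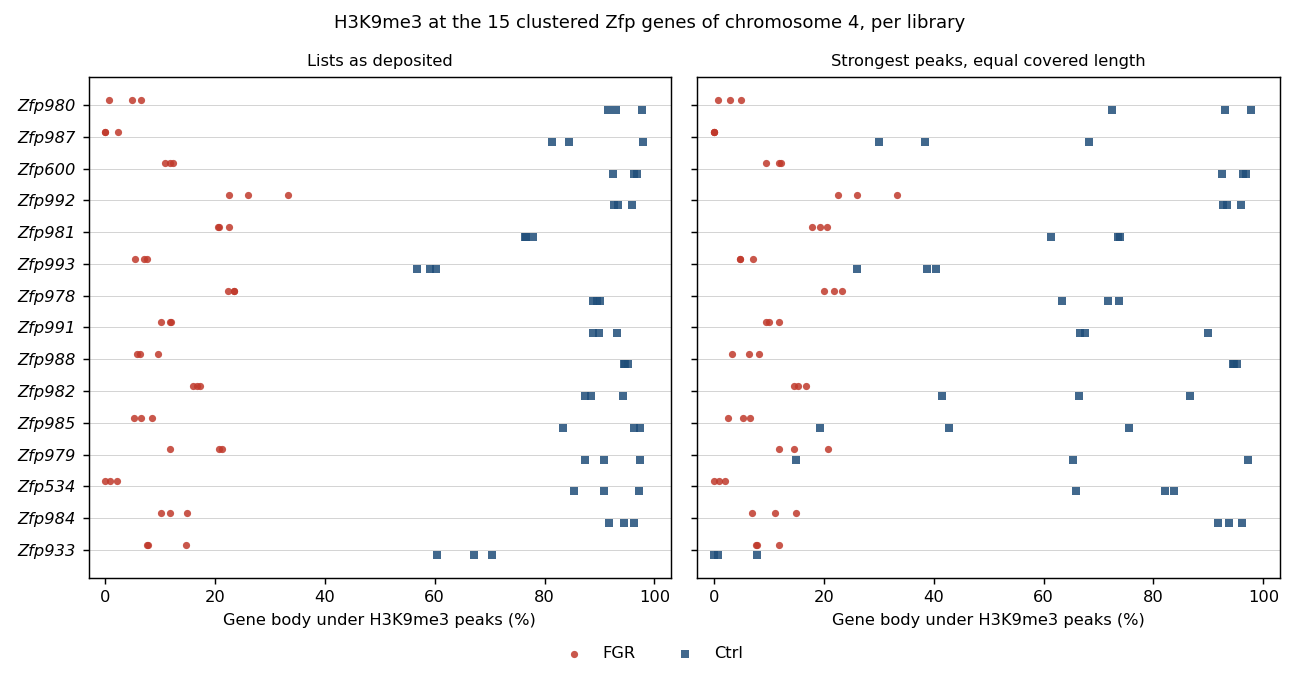
Percent of the gene body under H3K9me3 peaks at the 15 chromosome 4 members, in order of position, with 1 point per library (FGR above Ctrl in each row, replicates 1 to 3). Left, lists as deposited, where every Ctrl point lies above 50%; right, the strongest peaks up to an equal covered length, where the groups overlap at Zfp933 and Zfp979, and Zfp979 and Zfp985 spread widely in Ctrl.

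Some chromosome 4 members have close copies in the same or the other array, which bears on where reads can be placed. The mapping rule for reads with several matches is not given in the sources used here, so values of members with such copies are uncertain. RefSeq promoters (250 bases before to 50 after a start, GRCm38.p6) were matched for 190 of the 218 members, 12 of them on chromosome 4. Aligned end to end, the 66 pairs of chromosome 4 promoters had a median identity of 60.5%, against 46.2% over the 15753 pairs of other members, and 7 of the 12 had a partner at 80% identity or more, while the nearest partner of Zfp982 and Zfp993 among all members reached 50.3% and that of Zfp933 50%. Zfp600 and Zfp979 lie in different arrays and share 94.4% of their promoter. They are shown with Zfp982, the member of the same region with the most CG steps, because Zfp982 had H3K4me3 peaks in FGR while no library had one at the first pair. Capitals mark CG, the dinucleotide of CpG islands, which was searched as the letters CG and reads alike on both strands.
Zfp600, chr4:146156577-146156876, + strand: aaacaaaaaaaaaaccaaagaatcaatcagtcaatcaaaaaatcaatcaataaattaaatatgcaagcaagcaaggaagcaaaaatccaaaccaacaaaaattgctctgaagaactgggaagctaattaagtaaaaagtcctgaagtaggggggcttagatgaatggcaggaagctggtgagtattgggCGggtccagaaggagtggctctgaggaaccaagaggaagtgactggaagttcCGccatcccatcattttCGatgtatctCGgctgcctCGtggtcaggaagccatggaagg
Zfp979, chr4:147642459-147642758, - strand: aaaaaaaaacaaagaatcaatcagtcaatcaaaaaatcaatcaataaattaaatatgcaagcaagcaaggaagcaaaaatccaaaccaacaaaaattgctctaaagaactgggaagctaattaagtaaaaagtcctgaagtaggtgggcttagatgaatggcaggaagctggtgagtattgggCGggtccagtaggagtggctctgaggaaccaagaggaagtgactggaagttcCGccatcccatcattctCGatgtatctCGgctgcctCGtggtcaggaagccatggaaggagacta
Zfp982, chr4:147442864-147443163, + strand: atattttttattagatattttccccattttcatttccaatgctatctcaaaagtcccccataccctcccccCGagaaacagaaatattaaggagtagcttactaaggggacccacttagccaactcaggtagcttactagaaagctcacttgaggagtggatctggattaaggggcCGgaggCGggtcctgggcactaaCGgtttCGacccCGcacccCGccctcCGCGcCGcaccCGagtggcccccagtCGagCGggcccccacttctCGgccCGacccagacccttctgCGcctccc
The first 2 promoters hold 5 CG each, and Zfp982 holds 16. The median was 4.5 CG over the chromosome 4 members, 12 over members elsewhere and 14 over all 17274 promoters. At least 10 CG were present in 8.33% of the chromosome 4 promoters, in 65.2% of those of other members and in 57.8% of all promoters.

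The 3 marks of active starts were read as the length of peaks, in kb, inside windows of 2.5 kb around both ends of a gene. At the chromosome 4 arrays they were sparse in both groups. No H3K4me3 peak was called in any of 8 libraries at 9 of the 15 members, among them Zfp600, Zfp979, Zfp988 and Zfp992. The same held at 21 of the 218 members, and in each library 49.7% to 65.1% of all genes had an H3K4me3 peak. Zfp982 had 0.788, 0.845, 0.762 and 0.715 kb in FGR and 0 kb in all 4 Ctrl libraries (limma adjusted p = 5.68e-06; 0.365 after quantile normalization), and Zfp981 and Zfp984 likewise had H3K4me3 in the 4 FGR libraries alone. Zfp933 had H3K4me3 in all 8 libraries, at 1.35, 1.45, 1.5 and 1.38 kb in FGR and 0.838, 0.901, 0.49 and 0.998 kb in Ctrl (limma adjusted p = 0.000677), with a difference of −0.342 kb after quantile normalization. No H3K27ac peak lay at 12 of the 15, against 36 of the 218 members. In each library 47.9% to 53.1% of all genes had an H3K27ac peak. Among all members with a known promoter, the 19 with no H3K4me3 peak in any library had a median of 6 CG, the 12 with peaks in the 4 FGR libraries alone 8.5, and the 129 with peaks in all 8 libraries 12. The 19 include Zfp980, Zfp987, Zfp600, Zfp993, Zfp988, Zfp985, Zfp979 and Zfp534 of chromosome 4, with 3 to 6 CG each. Whether the order of these medians holds without chromosome 4 was not tested.

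Along the gene body H3K9me3 coverage was higher toward the 3′ end in the Ctrl lists as deposited. Over the 178 members on other chromosomes with a known strand, each gene was cut into 10 equal bins, and mean coverage of the first bin was 0%, 0.271% and 0.43% in FGR and 6.55%, 6.58% and 3.63% in Ctrl, in the lists as deposited. In the last bin it was 2.07%, 1.63% and 2.22% in FGR and 49.6%, 45% and 37.4% in Ctrl. The mean over all 17274 genes stayed between 3.74% and 6.27% in the first bin and 5.27% and 8.44% in the last in Ctrl. The 12 members of chromosome 4 were covered in Ctrl over 64.4% to 77.7% of the first bin and 96.3% to 97.2% of the last. In FGR their coverage was 7.65% to 14.1% of the first bin, 20.7% to 26.1% of the fourth and 0.299% to 2.07% of the last. In each FGR library the chromosome 4 members were thus covered most in the fourth bin and least in the last. At equal covered length the 178 members had 1.43%, 1.63% and 0.503% of the last bin in FGR and 1.08%, 2.69% and 1.59% in Ctrl. The groups overlapped there, and whether coverage still rose toward the 3′ end cannot be read from this bin alone. The 12 members of chromosome 4 then had 1.09%, 1.97% and 0.135% of the last bin in FGR and 87.1%, 74.7% and 75% in Ctrl.

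**Figure D3:**
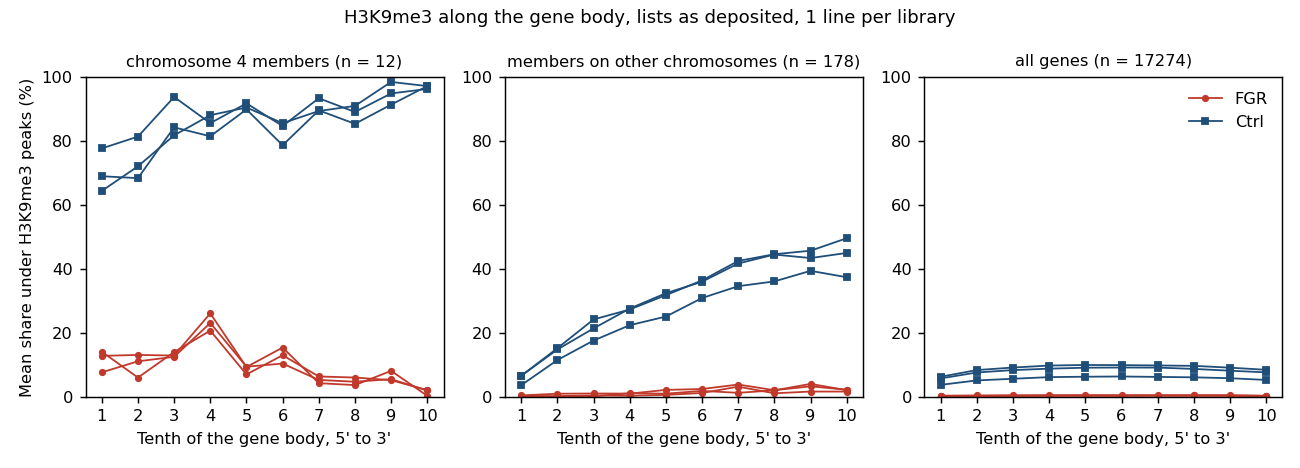
Mean percent under H3K9me3 peaks in each of 10 equal bins of the gene body from the 5′ to the 3′ end, lists as deposited, with 1 line per library (3 FGR, 3 Ctrl). Ctrl lines climb to 37.4% to 49.6% in the last bin for members on other chromosomes, while FGR lines of the chromosome 4 members peak in the fourth bin at 20.7% to 26.1%.

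Outside chromosome 4, members with wide H3K9me3 in the Ctrl lists as deposited had little in FGR. At equal covered length this difference was not seen, but that cut kept 9.77 Mb of 284.2 to 472.2 Mb in the Ctrl lists. In FGR it kept 9.77 Mb of 9.774 to 14.93 Mb. Wide Ctrl coverage can be lost through the cut itself, so this reading cannot tell whether the difference is absent. In the lists as deposited Zfp551 had 0% in all FGR lists and 50.9%, 59.6% and 55.7% in Ctrl (limma adjusted p = 0.000188). Zfp110, the neighbour with the highest coverage of that array at the common threshold, had 8.26%, 5.16% and 0% in FGR and 70.4%, 78.7% and 87.0% in Ctrl (limma adjusted p = 0.000592). Zfp809, whose protein binds the primer site of murine leukaemia viruses and recruits Trim28, had 0%, 0% and 4.13% in FGR and 57.0%, 53.5% and 61.9% in Ctrl (limma adjusted p = 0.000225). Zfp445, which protects imprints in the early embryo, had 2.31%, 0.738% and 0.588% in FGR and 65.1%, 57.0% and 54.4% in Ctrl (limma adjusted p = 0.000312). Both were chosen for their known roles after their values were seen. At equal covered length Zfp551 had 0% in every list, Zfp110 had 8.26%, 5.16% and 0% in FGR and 0% in each Ctrl list, and Zfp809 had 0%, 0% and 2.53% in FGR and 0% in each Ctrl list. Zfp445 then had 0%, 0.738% and 0% in FGR and 0%, 3.89% and 0.511% in Ctrl. In that reading Zfp110 and Zfp445 did not pass the test (limma adjusted p = 0.39 and 0.586), and Zfp551 and Zfp809 had peaks in too few libraries to be tested. Zfp180 on chromosome 7 kept more than most, with 15.3%, 17.7% and 21.8% in FGR and 64.5%, 60.6% and 64.4% in Ctrl (limma adjusted p = 0.000243). At equal covered length Zfp180 had 15.3%, 17.7% and 13.1% in FGR and 13.4%, 0% and 0% in Ctrl, and did not pass the test (limma adjusted p = 0.314).

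H3K4me3 was called in more members and over longer stretches in FGR. Peaks lay at 195 to 196 of the 218 members in each FGR library and at 167 to 177 in each Ctrl library, against 13837 to 14077 and 10757 to 11205 of all genes. Of 196 members tested, 189 were higher and 0 lower in FGR by limma, where 95.5% of all 14043 genes tested were higher and 0% lower. Medians over the members tested were 1.29 kb in FGR and 0.68 kb in Ctrl, with a median difference of 0.675 kb, against 0.887 kb over all genes tested. After quantile normalization, which removes a shift common to all genes, 13 members were higher and 74 lower, where 15.8% of all genes were higher and 24.2% lower. The direction of this mark at most members therefore turned with the scaling, and the median difference became −0.247 kb for members and −0.0946 kb for all genes.

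Zfp94, on chromosome 7 with a window shared with Zfp61, had 3.15, 3.09, 3.13 and 3.1 kb in FGR and 1.18, 1.12, 1.29 and 1.16 kb in Ctrl (limma difference 1.93 kb, SE 0.065, adjusted p = 2.43e-07). Zfp87, on chromosome 13 from 67515781 to 67526231, had 2.81, 2.96, 2.7 and 3.08 kb in FGR and 0.548, 0.5, 0.584 and 0.525 kb in Ctrl (limma difference 2.35 kb, SE 0.091, adjusted p = 3.2e-07). Both remained higher after quantile normalization (limma adjusted p = 0.00333 and 0.000107). Zfp53, which shares its window with Zfp52, averaged 3.08 ± 0.0498 kb in FGR and 1.52 ± 0.134 kb in Ctrl (SD, n = 4 each), but its difference was −0.000703 kb after quantile normalization. Zfp524, whose window is shared with Fiz1 and Zfp865, averaged 3.52 ± 0.222 kb in FGR and 1.58 ± 0.165 kb in Ctrl (limma adjusted p = 2.47e-06; 0.24 after quantile normalization). The largest difference of any member was at Zfp36, the gene of tristetraprolin, which destabilises cytokine mRNAs, with 6.56, 7.01, 6.73 and 6.46 kb in FGR and 3.17, 2.65, 1.95 and 3.46 kb in Ctrl (limma adjusted p = 5.17e-06; 0.12 after quantile normalization). Zfp335, of an H3K4 methyltransferase complex, averaged 3.09 ± 0.262 kb in FGR and 1.13 ± 0.244 kb in Ctrl (limma adjusted p = 6.86e-06; 0.051 after quantile normalization).

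At 12 members H3K4me3 was called in the 4 FGR libraries and in no Ctrl library, and at 0 members the reverse held, against 6.10% of all genes with FGR peaks alone and 0% with Ctrl peaks alone. The members' share, 5.50%, was near that of all genes. The 12 were Zfp345, Zfp965, Zfp972, Zfp981, Zfp982, Zfp984, Zfp787, Zfp418, Zfp112, Zfp428, Zfp819 and Zfp185. Zfp965, a chromosome 2 member, had 1.3, 1.33, 1.41 and 1.41 kb in FGR and 0 kb in each Ctrl library (limma adjusted p = 5.38e-07; 0.000317 after quantile normalization). Its close copy Zfp971, on the same chromosome, had 1.52, 1.32, 1.45 and 1.4 kb in FGR and 1.11, 0.799, 0.903 and 0.576 kb in Ctrl (limma adjusted p = 0.00114), but −0.387 kb as its difference after quantile normalization (limma adjusted p = 0.0403). FGR values of the 2 copies overlapped, while in Ctrl just one of them had a called peak. Their promoters are 97% identical, with 5 CG in Zfp965 and 4 in Zfp971, and are printed with that of Zfp94, which holds 25 CG, because the pair is nearly identical and Zfp94 is an unrelated promoter with the smallest p for this mark.
Zfp965, chr2:175469775-175470074, + strand: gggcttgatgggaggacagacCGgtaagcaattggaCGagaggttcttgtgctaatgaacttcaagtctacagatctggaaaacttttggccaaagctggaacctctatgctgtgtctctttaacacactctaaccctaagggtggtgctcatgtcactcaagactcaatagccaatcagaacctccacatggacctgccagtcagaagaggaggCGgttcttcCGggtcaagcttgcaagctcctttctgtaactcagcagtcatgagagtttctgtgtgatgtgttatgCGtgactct
Zfp971, chr2:178023034-178023333, + strand: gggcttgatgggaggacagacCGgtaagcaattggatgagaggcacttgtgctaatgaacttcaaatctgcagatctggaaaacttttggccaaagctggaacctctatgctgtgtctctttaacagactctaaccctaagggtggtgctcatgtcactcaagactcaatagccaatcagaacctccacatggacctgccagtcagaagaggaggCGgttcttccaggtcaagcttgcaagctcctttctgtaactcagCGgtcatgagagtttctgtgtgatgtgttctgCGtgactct
Zfp94, chr7:24316617-24316916, - strand: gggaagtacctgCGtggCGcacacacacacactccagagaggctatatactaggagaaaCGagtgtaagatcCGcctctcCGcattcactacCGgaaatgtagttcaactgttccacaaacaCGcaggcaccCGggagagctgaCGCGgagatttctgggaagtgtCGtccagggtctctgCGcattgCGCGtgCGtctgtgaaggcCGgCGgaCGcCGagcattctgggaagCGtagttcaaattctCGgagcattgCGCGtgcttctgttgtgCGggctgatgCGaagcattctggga
Reads from such near-identical promoters may be placed at either copy or dropped, so the Ctrl difference between Zfp965 and Zfp971 is uncertain.

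H3K9ac was shorter in FGR at most of the members called. Peaks lay at 190 to 194 members in FGR libraries and 187 to 189 in Ctrl libraries, against 14185 to 15415 and 12253 to 12463 of all genes. Of 195 members tested, 15 were higher and 96 lower in FGR, or 7.69% and 49.2%, against 28.5% of all 15605 genes higher and 30.0% lower. Medians over members tested were 0.809 kb in FGR and 1.21 kb in Ctrl. The median difference was −0.29 kb for members and 0.0307 kb for all genes tested. Quantile normalization left 17 members higher and 118 lower, against 23.0% and 31.6% of all genes. Without replicate 4 of both groups, 14 members were higher and 77 lower, counts that are not set against all genes here. Zfp genes outside clusters had 17 of 136 tested higher and 60 lower, or 12.5% and 44.1%. Other genes lying between the members had 53 of 153 tested higher and 36 lower, or 34.6% and 23.5%. No test was made between these lists.

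Zfp87 again showed one of the widest separations, with 0.54, 0.768, 0.603 and 0.521 kb of H3K9ac in FGR and 2.45, 2.82, 2.26 and 2.56 kb in Ctrl (limma difference −1.92 kb, SE 0.132, adjusted p = 1.2e-05), the lowest difference of any member. H3K4me3 and H3K9ac at this gene thus differed in opposite directions by a similar length, and the FGR values of each mark lay near the Ctrl values of the other. Zfp120, on chromosome 2, had 0.823, 0.972, 0.995 and 0.818 kb in FGR and 2.71, 2.69, 2.54 and 2.34 kb in Ctrl (limma adjusted p = 1.01e-05). Zfp84, on chromosome 7 with a window shared with Zfp30, had 1.56, 1.58, 1.41 and 1.47 kb in FGR and 2.83, 2.88, 2.85 and 2.9 kb in Ctrl (limma adjusted p = 7.57e-06). No FGR library of these genes reached a Ctrl library. Zfp597 averaged 1.72 ± 0.0862 kb in FGR and 3.0 ± 0.116 kb in Ctrl, and Zfp930 0.458 ± 0.0213 kb in FGR and 1.72 ± 0.14 kb in Ctrl (SD, n = 4 each). At Zfp971 the FGR libraries had 0.48 to 0.57 kb and the Ctrl libraries 1.08 to 1.65 kb.

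Among the 15 members with more H3K9ac in FGR, Zfp853 on chromosome 5 had 2.21, 1.95, 1.98 and 1.49 kb in FGR and 0 kb in each Ctrl library (limma adjusted p = 1.94e-05). Zfp575, whose window is shared with Ethe1, had 1.51, 1.22, 0.644 and 1.63 kb in FGR and 0 kb in each Ctrl library (limma adjusted p = 0.000766). Peaks in the 4 FGR libraries alone were also called at Zfp663, Zfp993 and Zfp185, and at 0 members in the 4 Ctrl libraries alone. These 5 members are 2.29% of 218, against 6.05% of all genes with FGR peaks alone and 0.495% with Ctrl peaks alone. Zfp777 averaged 1.52 ± 0.33 kb in FGR and 0.411 ± 0.167 kb in Ctrl, and Zfp579 2.13 ± 0.276 kb in FGR and 1.23 ± 0.152 kb in Ctrl. Zfp628, with windows shared with Nat14 and Ssc5d, had 3.61, 4.25, 3.68 and 3.33 kb in FGR and 2.23, 1.61, 1.94 and 1.73 kb in Ctrl (limma adjusted p = 0.000145), but at its 5′ end alone the difference was −0.297 kb (limma adjusted p = 0.0288). Over the 183 members longer than 5 kb with a known strand, 84.6% to 86.9% of the H3K9ac length lay at the 5′ end in FGR and 93.1% to 93.6% in Ctrl. At the 3′ end 12.6% to 16.4% of them had a peak in FGR and 7.65% to 8.74% in Ctrl. The corresponding 5′ shares of H3K4me3 were 91.1% to 91.5% in FGR and 91.8% to 93.6% in Ctrl.

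H3K27ac was shorter in FGR at most members, as at most genes. Peaks lay at 170 to 174 members in FGR and 176 to 177 in Ctrl, against 10369 to 11442 and 11282 to 11479 of all genes. Of 180 members tested, 2 were higher and 128 lower in FGR, or 1.11% and 71.1%, against 0.185% of all 11876 genes higher and 81.6% lower. Medians over members tested were 0.81 kb in FGR and 1.21 kb in Ctrl, with a median difference of −0.445 kb, against −0.707 kb over all genes. After quantile normalization the direction turned, with 43 members higher and 2 lower, where 12.5% of all genes were higher and 11.3% lower. Zfp771, whose window is shared with Zfp553 and Dctpp1, had 2.81, 2.1, 2.16 and 1.44 kb in FGR and 5.61, 5.31, 5.08 and 5.07 kb in Ctrl (limma difference −3.14 kb, SE 0.255, adjusted p = 7.93e-06), and stayed lower after quantile normalization (limma adjusted p = 0.00211). Zfp446 averaged 1.32 ± 0.0708 kb in FGR and 2.48 ± 0.225 kb in Ctrl, and Zfp653 0.949 ± 0.0906 kb in FGR and 1.89 ± 0.119 kb in Ctrl. Zfp553 averaged 0.46 ± 0.163 kb in FGR and 1.63 ± 0.185 kb in Ctrl, and Zfp12 0.385 ± 0.0747 kb in FGR and 1.2 ± 0.105 kb in Ctrl (SD, n = 4 each). Of these, Zfp446, Zfp653 and Zfp12 did not pass the test after quantile normalization (limma adjusted p = 0.359, 0.338 and 0.107). The 2 members with more H3K27ac in FGR had no called peak in Ctrl. Zfp599 had 0.584, 0.422, 0.245 and 0.318 kb in FGR (limma adjusted p = 0.00562), and Zfp28 had 0.903, 0, 0.932 and 0.479 kb in FGR (limma adjusted p = 0.0182), against 0 kb in each Ctrl library. The call at Zfp28 was lost without FGR replicate 1 (limma adjusted p = 0.0541) or 3 (limma adjusted p = 0.052).

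**Figure D4:**
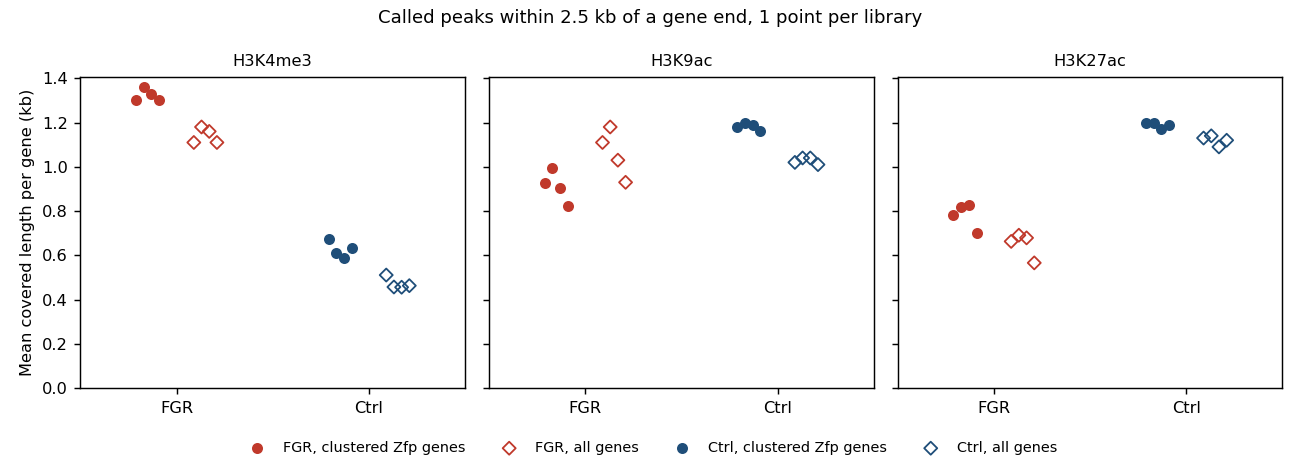
Mean length of peaks (kb) in the 2.5 kb windows around gene ends, with 1 point per library (4 FGR left of 4 Ctrl), over the 218 clustered Zfp genes (filled) and all 21631 genes (open). For H3K9ac the members lie at 0.825 to 0.996 kb in FGR and 1.16 to 1.2 kb in Ctrl, while all genes lie at 0.93 to 1.18 kb in FGR and 1.01 to 1.04 kb in Ctrl.

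The 3 marks were also combined gene by gene. Of 179 members tested for all 3, 72 or 40.2% had higher H3K4me3, lower H3K9ac and lower H3K27ac in FGR, against 36.7% of 11429 genes, which is near the background. After quantile normalization the combination was left at 1 member, against 1.26% of genes. Higher H3K4me3 and lower H3K27ac without a call for H3K9ac were found at 48 members or 26.8%, against 33.2% of genes. Higher H3K4me3 together with higher H3K9ac was found at 14 of 193 members tested for both, or 7.25%, against 25.1% of 13822 genes. In total 20 members were tested for none of the 3 marks. Members were also ranked by their H3K9me3 in the Ctrl lists as deposited and cut into 4 sets of 54 or 55. In the set with the least, mean H3K9ac was 1.57 ± 0.136 kb in FGR and 1.49 ± 0.0201 kb in Ctrl (SD over 4 libraries each). In sets 2 and 3 of this order it was 0.834 and 0.713 kb in FGR, and 1.23 and 1.16 kb in Ctrl. In the set with the most, it was 0.528 ± 0.0275 kb in FGR and 0.851 ± 0.0384 kb in Ctrl. The sets with the least and the most had 1.69 and 0.981 kb of H3K4me3 in FGR, and 0.74 and 0.495 kb in Ctrl. The set with the most held all 15 chromosome 4 members, whose mean H3K9ac was 0.14 to 0.19 kb in FGR and 0.163 to 0.214 kb in Ctrl. The part of these 15 in the contrast between sets was not tested. These means describe the members and carry no test.

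**Figure D5:**
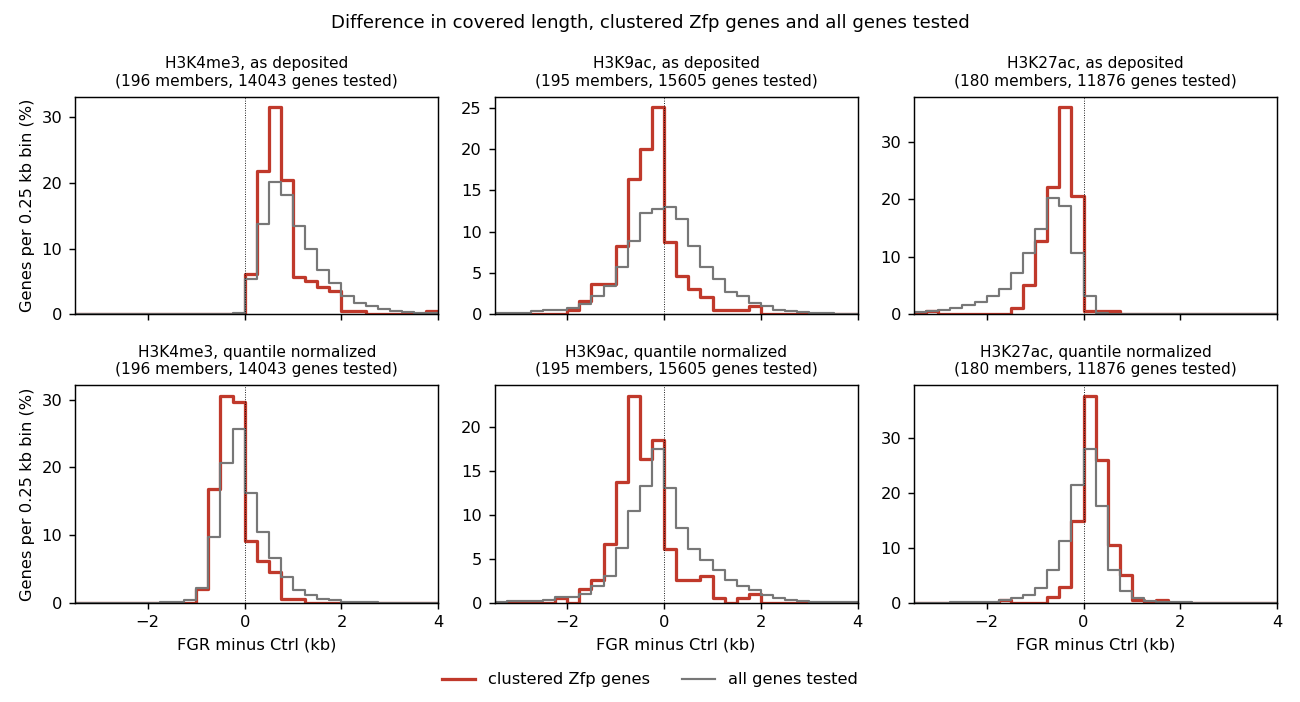
Share of genes in bins of 0.25 kb by the difference in covered length, FGR minus Ctrl, for clustered Zfp genes (thick line) and all genes tested (thin line). Upper row, values from the deposited lists; lower row, after quantile normalization, where H3K9ac of the members stays centred below 0 with a median of −0.467 kb and the other 2 marks change sign.

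The proteins through which KRAB zinc fingers act were followed as a list of 30 genes, among them Trim28, Setdb1 and the HP1 genes Cbx1, Cbx3 and Cbx5. H3K4me3 was higher in FGR at 27 of 28 tested, H3K27ac was lower at 27 of 27, and H3K9ac was higher at 6 and lower at 11 of 29, where 95.5%, 81.6%, 28.5% and 30.0% of all genes were called in those directions. After quantile normalization 8 of these genes were higher and 4 lower for H3K4me3, against 15.8% and 24.2% of all genes tested. For H3K27ac 2 were higher and 8 lower, against 12.5% and 11.3% of all genes. For H3K9ac 6 were higher and 10 lower, against 23.0% and 31.6% of all genes. H3K9me3 was tested at 1 of them and not called. Trim28 had 2.94 ± 0.0362 kb of H3K4me3 in FGR and 1.42 ± 0.268 kb in Ctrl (SD, n = 4 each; limma adjusted p = 7.4e-06), and 2.12 ± 0.168 kb of H3K9ac in FGR and 2.55 ± 0.0227 kb in Ctrl (limma adjusted p = 0.00672). Setdb1 averaged 1.71 ± 0.152 kb of H3K4me3 in FGR and 0.718 ± 0.28 kb in Ctrl (limma adjusted p = 0.000171). Its H3K9ac was 1.08 ± 0.0796 kb in FGR and 1.12 ± 0.107 kb in Ctrl and did not pass the test (limma adjusted p = 0.703).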

How the data were processed

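Peak lists of 32 libraries were used, 4 per group and mark. Per the submitters' processing notes the tools were MACS2 (version 2.2.7.1), DiffBind (3.12.0), Bowtie2 (2.4.5), Trim Galore (0.6.5) and SAMtools (1.3.1), with no role or order stated. H3K9me3 lists of replicates 1 to 3 were deposited as broad peaks and all others as narrow peaks. The −log10 p and −log10 q values of each peak are those the authors' caller wrote and deposited. The fold enrichment and the score of each peak were also deposited by the authors as their caller wrote them, and were not used. Input libraries were not analysed here.

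Peaks were merged and intersected with RefSeq genes (GRCm38.p6). Active marks were summed as kb within 2.5 kb of either gene end. H3K9me3 was the percent of the gene body covered, at a −log10 q of at least 1.3, in the 3 broad libraries per group. Genes with a peak in at least 2 libraries were tested with limma 3.58.1 (R 4.3.3), FGR minus Ctrl, two-sided, with p-values adjusted over every gene in the fit (Benjamini-Hochberg) and called under 0.05. The limma step was tested on simulated data.

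Genes named were drawn from the 5 members with the smallest p in each direction per mark, and the members with the highest and lowest mean H3K9me3 of each cluster of 5 or more. All other members given with values, among them Zfp600, Zfp988, Zfp979, Zfp933, Zfp971, Zfp36 and Zfp335, were chosen after their values were seen. The members, gene lists and tests were chosen with earlier results of these data known. Alternatives were quantile normalization, other windows, peak thresholds, list lengths and filters, a log2 scale, a replicate block and leaving out libraries. Reading by equal covered length (9.77 Mb) and leaving out replicate 4 of both groups were added after the data were seen. Peak lists carry no read counts, so no interval for depth is given. At most 0.545% of peaks were identical between any 2 lists of a group and mark, and replicates were counted separately.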

Additional observations from a re-analysis of the deposited data

Results flagged for a closer look

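H3K9ac at Zfp597 in FGR replicate 2 was 1.85 kb, while the other 3 FGR libraries lay between 1.67 and 1.69 kb. The gap to the nearest library was 0.889 of the group's range, above the critical value of Dixon's test for 4 values. It was the 1 flag among 44 groups, and chance flags about 1 in 20. Groups with all 4 values equal, such as Ctrl H3K4me3 at Zfp965, count among the 44 but could not be flagged. All Ctrl libraries were higher, so the call at Zfp597 does not rest on that library.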

How the results depend on the processing

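Of the counts recomputed under alternatives, 203 stayed within 1.5 times the reported count and 59 did not. For single genes, taken as the members with the smallest p per mark and direction, 410 values kept direction and call. Another 17 kept direction and lost the call, and 12 changed sign. A gene with too few peaks to be tested under an alternative was left out there, and was not counted as a lost call. The other members given with values, such as Zfp600, Zfp933 and Zfp971, were not part of this count. Quantile normalization gave 13 members higher and 74 lower for H3K4me3 (2220 and 3398 of all genes), 43 higher and 2 lower for H3K27ac (1488 and 1344), and 335 and 394 of all genes for H3K9me3. Zfp53 became −0.000703 kb under it. For H3K9me3 nearly all Ctrl values were tied at 0% before this step. At the 5′ end alone Zfp628 was −0.297 kb for H3K9ac, 1 gene was lower for H3K4me3, and 1 member and 10 genes were higher for H3K27ac. With equal list lengths 170 genes were lower for H3K4me3, and 0 members and 6 genes higher for H3K27ac. H3K27ac was higher at 1 member with no filter, at 0 with peaks of −log10 q of at least 3, at 58 genes on a log2 scale, and at 1 member and 9 genes without replicate 4 of both groups.

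H3K9me3 turned most with the lists. At equal covered length of the deposited lists, 5 members were higher and 10 lower (151 and 21 of all genes), with −50.4 points at Zfp981, −47.9 at Zfp978, −49.3 at Zfp982, −41 at Zfp985 and −64.2 at Zfp991. In the lists as deposited 0 members were higher and 145 lower (15 and 7826 of all genes), with −55.7, −66.4, −73.3, −85.5 and −79.3 points at the same genes in that order. Higher counts were 10 members and 360 genes with no filter (2 genes lower), 1 and 31 with peaks of −log10 q of at least 3 (2 lower), and 11 and 138 in windows at gene ends (1 lower). Equal covered length at the common threshold left 28 genes to test, none of them a member, with 9 higher. The cause of these moves was not tested, beyond the fewer genes that stricter peaks leave.

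Leaving out each library in turn gave 185 to 189 members higher and 0 lower for H3K4me3 (13116 to 13328 and 0 to 1 of all genes), and 12 to 18 higher and 81 to 93 lower for H3K9ac (3804 to 4821 and 4217 to 4785). For H3K27ac it gave 1 to 2 and 107 to 123 (9 to 27 and 8941 to 9544), and for H3K9me3 13 to 35 and 0 (345 to 1177 and 2 to 5). No member could be lower for H3K9me3, since none had a Ctrl broad peak at the common threshold. Same-numbered libraries did not deviate together, so the numbers were not taken as pairs. With the number as a replicate block, members higher and lower were 185 and 0 for H3K4me3 and 12 and 81 for H3K9ac. For H3K27ac they were 2 and 119, and for H3K9me3 12 and 0 (270 and 2 of all genes). The block counts for H3K4me3, H3K9ac and H3K27ac are not set against all genes here. In the fit without the block, 95.5% of all genes tested were higher for H3K4me3 and 81.6% lower for H3K27ac. For H3K9ac 28.5% were higher and 30.0% lower in that fit. Without read counts the depth of a library cannot be set against its peaks.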
